A study of Mus musculus with 23 samples.

Results

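A404 cells exposed to all-trans retinoic acid for 96 h were compared with undifferentiated A404 cells. The members are the 6 arrays titled RA96 and the 6 titled Control, 12 of the 23 arrays of the series, and every gene on them was described. A404 is a clone of P19, a mouse embryonal carcinoma line. All groups were this clone, so line and clone are shared and the data hold no second clone. Control cells were grown in serum-containing medium to near confluence and harvested at time 0. RA96 cells were switched, while sparse, to basal medium with 1 µmol/L all-trans retinoic acid and harvested 96 h later. The groups therefore also differed in medium, starting density and time in culture, and these cannot be told apart from retinoic acid. RNA of 5 to 6 plates entered each replicate, and the labels do not state if replicates came from separate cultures. The p-values therefore cover only array-to-array spread, which may be technical. RA96 cells had not been through the puromycin selection that the series applied afterwards. They are a mixed culture.

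As background, retinoic acid enters the nucleus and binds retinoic acid receptors, which pair with retinoid X receptors on DNA repeats near target genes and switch from repression to activation. In embryonal carcinoma cells this ends the pluripotent state and starts differentiation, and P19 cells can give neural, endoderm-like or muscle cells depending on dose and culture form. A404 was derived as a clone in which retinoic acid gives smooth muscle efficiently, with a puromycin resistance gene driven by the Acta2 promoter as the selection tool. Smooth muscle genes are commonly read by serum response factor, which binds the CArG box, a short element in their promoters, together with its coactivator myocardin.

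On each array Cy5-labelled A404 RNA was hybridised beside Cy3-labelled RNA pooled from whole mouse embryos of day 17.5, with the dyes in 1 orientation on all arrays. A value here is the log2 ratio of cells over embryo, so 0 is the embryo's level and each unit is a doubling. A change is RA96 minus Control on that scale, given with its standard error. The embryo reference cancels in a change but not in a level, and levels were not compared between genes. A row (the mean of a gene's probes, or a probe with no single gene symbol) was called at an adjusted p under 0.05 in limma's moderated test (Benjamini-Hochberg over all 17863 rows). The number of arrays limits the precision, and array files give no count of molecules.

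The 12 arrays fell into technical sets that the labels do not name. Control 1 to 3 with RA96 1 and 3 formed set 1, and the remaining 3 Control and 4 RA96 arrays formed set 2. The first component of the variation within groups took 48.5% of it, and its sign matched the set on all 12 arrays. Correlations between arrays of the same group ran from 0.83 to 0.97 within a set and from 0.75 to 0.85 between sets, against 0.59 to 0.72 between the groups within a set. Changes were smaller in set 2, with a slope of 0.71 on those of set 1 across rows. The set was fitted as a block. It was first seen in these data, which makes p-values too small, and the size of a change is less settled than its direction.

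With the set as a fixed block, most measured genes were called as changed after 96 h of retinoic acid. Of 8683 genes, 5245 were called (60.4%), with 2332 higher (26.9%) and 2913 lower (33.5%). The higher genes moved further. At 2-fold or more, 634 genes were higher (7.3%) and 322 lower (3.71%), and at 8-fold or more 55 were higher and 9 lower. All 6 RA96 arrays lay outside the range of the 6 Control arrays for 2793 genes (32.2%). Both sets gave the same sign for 5226 of the 5245 called genes, which a call on the pooled change favours by itself. Fitted alone, set 1 called 3625 genes and set 2 called 4409. Of these, 2776 were called in both sets with the same sign. Over all rows, 9780 of 17863 were called (54.8%), 4075 higher (22.8%) and 5705 lower (31.9%). A random block for each combination of group and set left 3002 of the 17863 rows called, with 1606 higher and 1396 lower. Counts of list members called "with the random block" refer to that fit. Their background is these counts over all rows, not the 26.9% and 33.5% of the main fit. The change differed between the sets (interaction, adjusted p under 0.05) for 514 rows and for 270 genes (3.11%). The count of rows was 324, 135, 191 and 336 without Control 2, 4, 5 and 6 in turn, and 86, 36, 213 and 195 without RA96 1, 3, 5 and 6. Among the genes named below with a change of 2-fold or more, Mylk, Itga8, Crip1, Hoxa6, Hoxb8, Emx2 and Gsc lost their call with the random block. Called members of a list whose call ended when any single array was left out are counted but not named, a choice made after their values were seen. The lists were drawn up with earlier results of these data known. An excess of a list's share over that of all genes may therefore be partly built in.

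The embryo reference places these changes. Among the higher genes, 362 lay below the embryo on all Control arrays and above it on all RA96 arrays, 502 stayed below it on all 12 arrays and 389 stayed above it. Among the lower genes, 160 went from above the embryo on all Control arrays to below it on all RA96 arrays, 1103 stayed above and 517 stayed below.

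**Figure D1:**
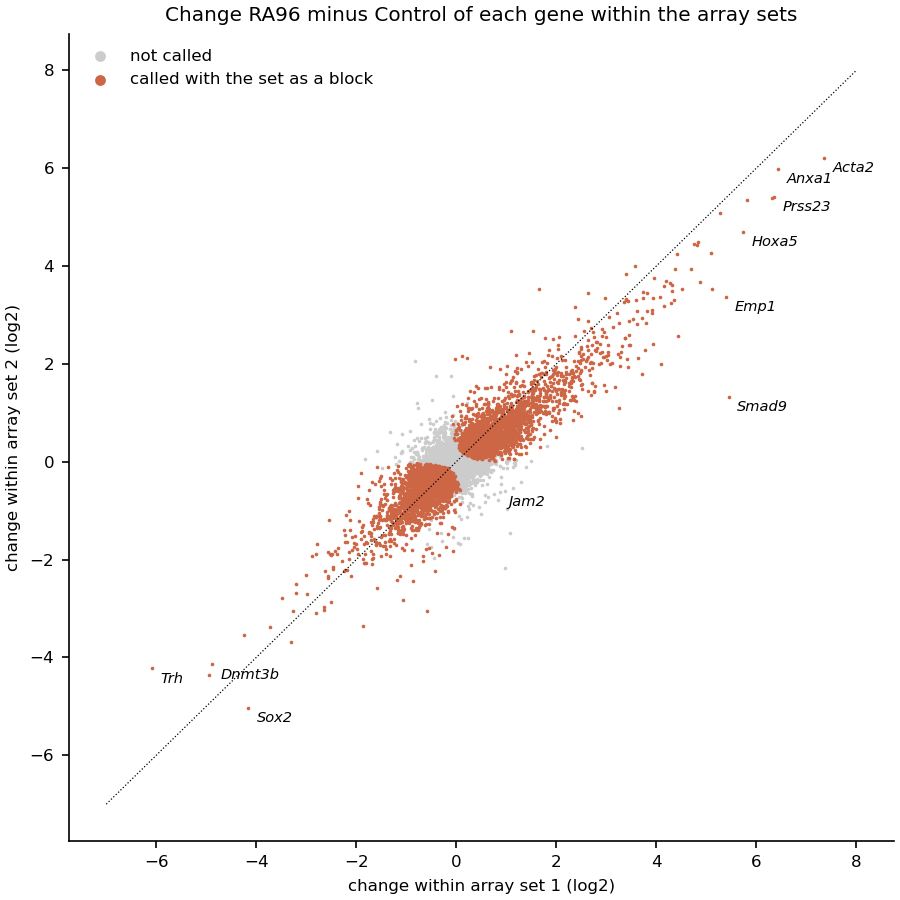
Change RA96 minus Control (log2) of each of 8683 genes within array set 1 (x axis) and within array set 2 (y axis), with called genes in orange, genes not called in grey and a dotted line of equal change. The largest rises and falls lie in the same corners in both sets, and most strong changes sit nearer to 0 in set 2 (slope 0.71).

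The markers of the differentiating and the undifferentiated state moved in opposite directions with no overlap of the groups. Acta2, smooth muscle alpha-actin, had a lowest, median and highest value of -5.91, -4.79 and -4.23 on Control arrays and of 1.69, 1.87 and 2.03 on RA96 arrays. All RA96 arrays lay above the embryo and all Control arrays far below it. Further sets of 3 values are in the same order, for Control and then RA96. The rise of 6.68 ± 0.21 (103-fold, adjusted p = 8.24e-10) was the largest of all genes meeting the rule for named genes. It was 7.35 within set 1 and 6.21 within set 2. In bulk RNA, more cells of a type and more RNA per cell cannot be told apart. Prss23, a secreted serine protease, went from -2.38, -2.21 and -1.80 to 3.02, 3.50 and 4.16, a rise of 5.81 ± 0.18 (adjusted p = 8.24e-10). Trh, the precursor of thyrotropin-releasing hormone and far above the embryo level before treatment, went the other way, from 4.09, 5.51 and 6.27 to -0.36, 0.20 and 0.87. It fell by 4.99 ± 0.33 (adjusted p = 2.19e-07), and its RA96 arrays scattered around the embryo level. Dnmt3b, a de novo DNA methyltransferase of early embryonic cells, went from 4.70, 5.30 and 5.60 to 0.39, 0.72 and 1.04 and fell by 4.45 ± 0.15 (adjusted p = 1.33e-09). It remained above the embryo on every RA96 array.

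**Figure D2:**
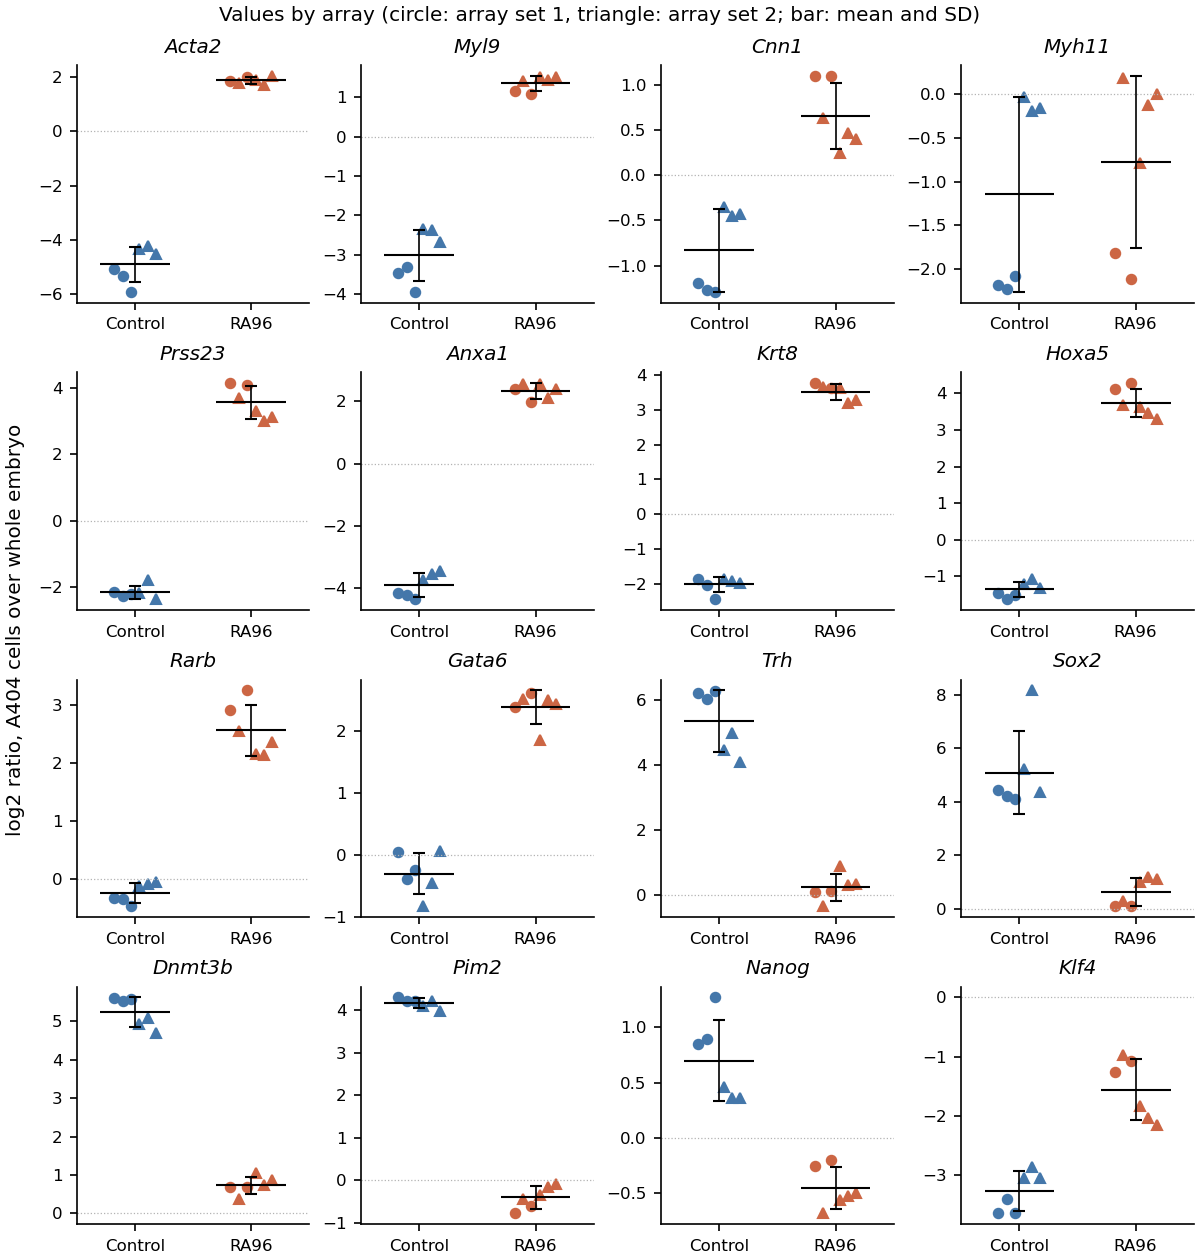
Log2 ratio of A404 cells over whole embryo (y axis) for 16 genes on the 6 Control and 6 RA96 arrays, with circles for array set 1, triangles for array set 2, and bars for the mean and SD of each group. The groups separate for every gene drawn except Myh11, whose values follow the array set in both groups.

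The smooth muscle contractile list moved in a single direction. Of 27 measured members, 21 were higher and 0 lower, against 26.9% of all genes higher, and 18 rose at least 2-fold. The median change was 1.46, against -0.07 over all genes. The median of the members ran from -1.61 to -0.55 over the Control arrays and from 0.48 to 0.95 over the RA96 arrays, without overlap. With group and set as a random block, 18 members kept a call.

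The thick filament genes did not all rise. Myl9, the regulatory light chain of smooth muscle myosin, had Control values of -3.95, -2.99 and -2.34 and RA96 values of 1.08, 1.43 and 1.52, with no overlap and a rise of 4.24 ± 0.15 (adjusted p = 1.87e-09). Its partner light chain Myl6 rose by 1.87 ± 0.12. The kinase that phosphorylates the regulatory chain, Mylk, rose by 1.49 ± 0.14 although its groups overlapped, and the targeting subunit of the opposing phosphatase, Ppp1r12a, by 0.80 ± 0.12. The heavy chain Myh11, a late marker of the contractile cell, did not follow. Its Control values were -2.22, -1.14 and -0.03 and its RA96 values -2.11, -0.46 and 0.18, a change of 0.052 ± 0.15 (adjusted p = 0.783), and in both groups the arrays of set 1 lay lower than those of set 2.

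Thin filament genes rose with Acta2. Actg2, the enteric smooth muscle actin, had Control values of -6.57, -4.72 and -3.38 and RA96 values of -3.34, -1.46 and -1.04. The groups were apart only narrowly, set 1 lay lower in both, and the change was 2.60 ± 0.19. Both stayed below the embryo. Cnn1, calponin, which binds actin and lowers myosin ATPase activity, went from -1.29, -0.82 and -0.35 to 0.25, 0.55 and 1.10, a rise of 1.46 ± 0.23. Cald1, caldesmon, rose by 2.47 ± 0.13, and the tropomyosins Tpm2 and Tpm1 by 1.85 ± 0.15 and 1.00 ± 0.091. The 2 probes of Tpm1 stood far apart, at 0.089 and 1.91, and only 1 was called. Smtn, smoothelin, rose by 0.87 ± 0.11.

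Anchoring and LIM-domain proteins made up most of the remaining rises. Fhl1 rose by 3.43 ± 0.15, Csrp1 by 2.55 ± 0.072, Pdlim7 by 1.25 ± 0.071, Pdlim5 by 1.09 ± 0.11 and Crip1 by 1.25 ± 0.17. The 3 probes of Pdlim5 were all called but ran from 0.32 to 2.10. The actin crosslinkers Actn1 and Flna rose by 2.50 ± 0.078 and 1.62 ± 0.12, and the adhesion linker Vcl, vinculin, by 1.78 ± 0.12. Itga8, an integrin of contractile cells, rose by 1.27 ± 0.21. Of the intermediate filaments, Vim, vimentin, rose by 2.88 ± 0.16, while Des, desmin, changed by 0.35 ± 0.19 and Synm, synemin, by -0.0086 ± 0.081, neither called. Without Control 2, Des was called at 0.47. Kcnmb1, a potassium channel subunit, Casq2, a calcium store protein, and Ldb3, a Z-disc protein, were not called either, at 0.19 ± 0.10, 0.10 ± 0.20 and -0.054 ± 0.094. Single probes of Kcnmb1 and Ldb3 disagreed in sign with these means.

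The promoters of the actin and of the light chain show the element that smooth muscle genes often carry, and the promoter of Rarb, described further on, shows a retinoic acid response element. Below are the 250 bases before the start site in RefSeq's annotation of GRCm38.p6, with CArG boxes in capitals in Acta2 and Myl9 and the response element in capitals in Rarb. They are at chr19:34255374-34255623 on the minus strand, chr2:156775214-156775463 on the plus strand and chr14:16575477-16575726 on the minus strand, each printed 5′ to 3′ along its gene.
Acta2: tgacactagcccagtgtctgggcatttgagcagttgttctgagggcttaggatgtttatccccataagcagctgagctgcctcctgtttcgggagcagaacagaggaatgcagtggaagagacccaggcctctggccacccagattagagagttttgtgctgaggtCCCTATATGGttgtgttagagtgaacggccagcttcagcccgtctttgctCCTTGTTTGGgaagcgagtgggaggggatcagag
Myl9: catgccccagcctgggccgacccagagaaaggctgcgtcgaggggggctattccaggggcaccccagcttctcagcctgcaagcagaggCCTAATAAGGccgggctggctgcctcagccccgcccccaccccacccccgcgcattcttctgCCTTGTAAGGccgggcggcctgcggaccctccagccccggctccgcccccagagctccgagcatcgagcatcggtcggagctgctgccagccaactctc
Rarb: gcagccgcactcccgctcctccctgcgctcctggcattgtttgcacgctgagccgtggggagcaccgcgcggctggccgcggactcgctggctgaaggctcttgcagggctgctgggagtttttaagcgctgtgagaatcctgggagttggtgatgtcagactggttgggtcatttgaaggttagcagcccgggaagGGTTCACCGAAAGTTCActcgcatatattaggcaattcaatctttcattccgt
A CArG box was searched on both strands as CC, 6 bases that are each A or T, then GG. A looser form allowed 1 G or C among the 6. Acta2 holds only the looser form, CCCTATATGG at 84 and CCTTGTTTGG at 34 bases before the start. Myl9 holds the strict CCTAATAAGG at 161 bases and the looser CCTTGTAAGG at 99. Strict boxes also stood before Myl6 (CCTTATATGG), Vcl (CCTTATAAGG), Fhl1 (CCTAAAATGG) and Ldb3 (CCATTTATGG), of which Ldb3 was not called. In all, 5 of 25 contractile genes with a window held a strict box. The share was 1.47% of all 32851 windows, 1.41% of the 7022 measured genes with a window 2.94% of genes called at least 2-fold higher and 2.35% of those called at least 2-fold lower. The looser form stood in 7.24% of all windows, 7.92% of the measured genes, 8.82% of the higher and 11.8% of the lower ones. The Rarb element, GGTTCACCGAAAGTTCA at 53 bases before the start, is a direct repeat with 5 bases between its parts. The repeat was searched on both strands, each part being A or G, then G, then G or T, then TCA, and it occurred in 0.0883% of all windows. A match is a description of letters, and binding was not measured.

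Regulators of the smooth muscle programme changed less uniformly. Of 19 measured, 8 were higher (42.1%) and 1 lower (5.3%), against 26.9% and 33.5% of all genes. Without Control 6 or RA96 4, 2 were lower. The median was 0.20, and 8 and 1 were called with the random block. Gata6, a zinc finger factor of vascular muscle and of endoderm, went from -0.83, -0.31 and 0.054 to 1.85, 2.46 and 2.61, without overlap and with a rise of 2.72 ± 0.16. Its 3 probes were all called but ran from 1.17 to 4.18. Egr1, an immediate early factor, rose by 2.73 ± 0.28, and the Krüppel-like factors Klf4 and Klf5 by 1.71 ± 0.24 and 1.28 ± 0.14. Klf4 is known both as a pluripotency factor and as a repressor of contractile genes, and its RA96 values of -2.16, -1.54 and -0.98 stayed below the embryo. Hey2, Prrx1, Tead1 and Elk4 made up the other 4 rises, between 0.99 and 1.26, and were named after their values were seen. Sp1 fell by 0.71 ± 0.092. Serum response factor itself, Srf, changed by 0.20 ± 0.091 and its cofactor Mrtfa by 0.21 ± 0.13, neither called. Srf was called without RA96 2, at 0.26. Both were singled out after their values were seen.

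The largest rises, apart from Acta2, included genes of the cell surface, the matrix and the epithelial skeleton. Anxa1, a membrane-binding annexin, went from -4.36, -3.96 and -3.44 to 1.97, 2.41 and 2.57, a rise of 6.17 ± 0.13 (72.2-fold, adjusted p = 6.02e-11). Prss23 followed at 56-fold. Pmp22, a four-pass membrane protein known from peripheral myelin, rose by 5.76 ± 0.22, and Emp1, of the same family, by 4.21 ± 0.36. Krt8, a keratin of simple epithelia, went from -2.44, -1.94 and -1.86 to 3.19, 3.63 and 3.77, a rise of 5.54 ± 0.13 with every RA96 array above 3. Serpinb6b, an intracellular serine protease inhibitor, rose by 5.17 ± 0.36, with a wide spread on both sides (-2.22, -1.60 and -0.79 against 2.30, 3.72 and 4.42). Hoxa5, a homeobox factor of trunk identity, rose by 5.13 ± 0.17. The matricellular genes Ccn2 and Postn rose by 4.63 ± 0.11 and 4.18 ± 0.28, the galectin Lgals1 by 4.61 ± 0.14 and the calcium-binding S100a6 by 4.59 ± 0.18. The growth factors Igf2 and Tgfb2 rose by 4.57 ± 0.19 and 4.31 ± 0.10. All of these groups were apart on every array, as the rule for naming them required.

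**Figure D3:**
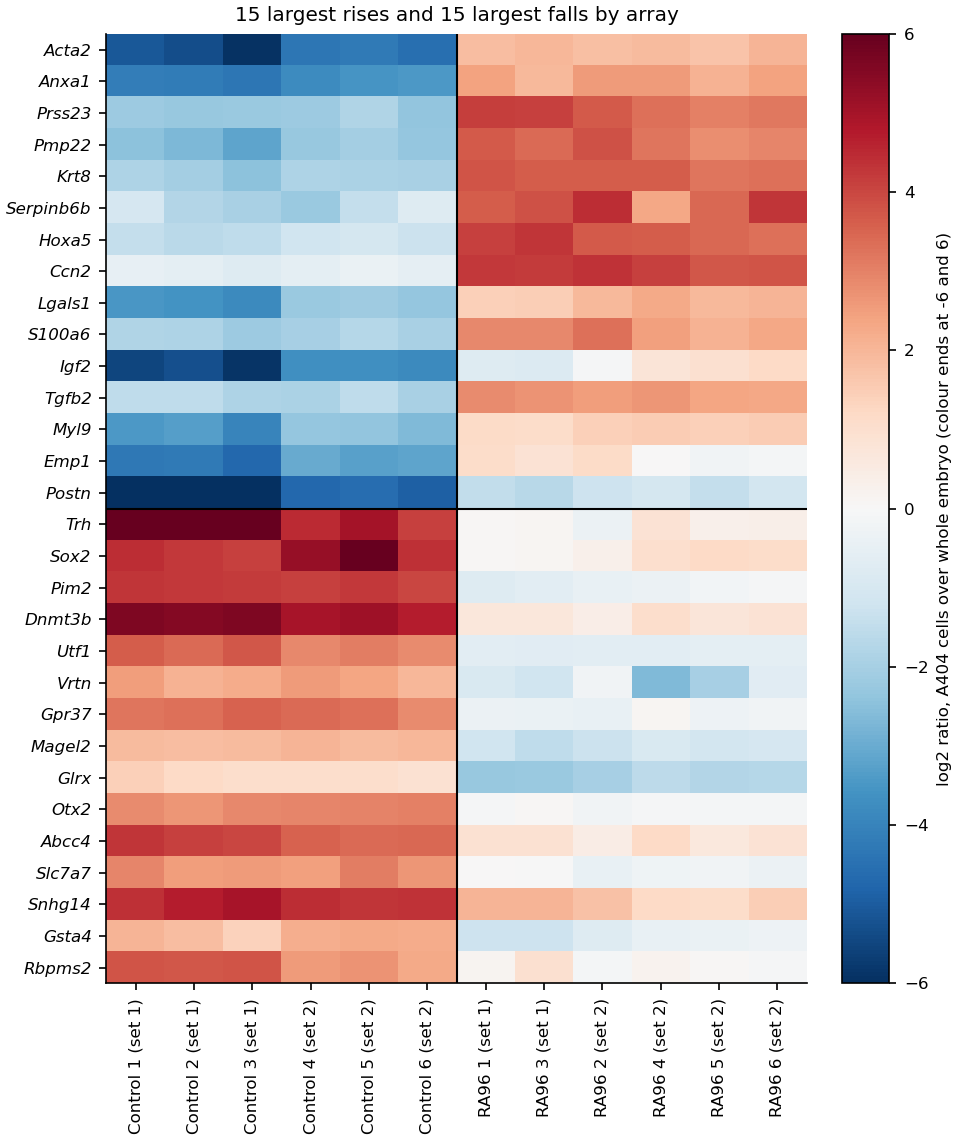
Log2 ratio of A404 cells over whole embryo (colour) of the 15 largest rises and 15 largest falls that met the rule for named genes (lines) on each Control and RA96 array (columns, ordered by array set). The rule itself required that no RA96 array lie within a gene's range of Control arrays. Within a group, set 1 and set 2 differ visibly for Acta2, Igf2, Lgals1, Emp1, Trh and Rbpms2.

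Several of the largest falls are genes known from pluripotent cells. After Trh came Sox2, a pluripotency and neural progenitor factor, with Control values of 4.12, 4.41 and 8.18 and RA96 values of 0.093, 0.64 and 1.19. It fell by 4.67 ± 0.52 (adjusted p = 1.44e-05), and a single Control array, replicate 5, stood at 8.18. Pim2, a survival kinase, went from 3.99, 4.21 and 4.30 to -0.78, -0.40 and -0.092 and fell by 4.61 ± 0.11, to below the embryo on every RA96 array. Utf1, a chromatin factor of pluripotent cells, fell by 3.83 ± 0.12, and Vrtn, a vertebral number factor, by 3.53 ± 0.35. Otx2, a head homeobox factor present in the epiblast, had RA96 values of -0.23, -0.10 and 0.054 after Control values of 2.66, 2.90 and 3.01 and fell by 2.98 ± 0.077. The receptor Gpr37 fell by 3.52 ± 0.13, the transporters Abcc4 and Slc7a7 by 2.90 ± 0.14 and 2.87 ± 0.12, and the redox enzymes Glrx and Gsta4 by 3.07 ± 0.13 and 2.83 ± 0.12. The RNA-binding protein gene Rbpms2 fell by 2.79 ± 0.16. The last of the 15, Magel2 and Snhg14, are imprinted and are described with those genes.

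The pluripotency list was lower on the whole but not throughout. Of 25 measured members, 14 were lower and 5 higher, against 33.5% of all genes lower, and the median change was -0.73. With the random block 12 were lower and 5 higher. The members' median ran from 0.68 to 1.18 over Control arrays and from -0.11 to 0.099 over RA96 arrays. This list, which holds Trh and Pim2, was also drawn up with earlier results known, so its shares are not a test. Nanog, a core factor, went from 0.36, 0.65 and 1.27 to -0.69, -0.52 and -0.20, without overlap, and fell by 1.07 ± 0.089 (adjusted p = 1.49e-06). Fgf4, a growth factor target of Sox2, fell by 2.31 ± 0.11, and the surface adhesion molecule Epcam by 2.33 ± 0.17. The Nodal antagonist Lefty1 fell by 1.60 ± 0.18, the zinc finger factor Sall4 by 1.56 ± 0.078 and Mycn by 1.53 ± 0.16. The 3 probes of Sall4 were all called but ran from -2.77 to -0.42. Dppa2, Dppa3 and Trim28 fell by 0.75 ± 0.071, 0.72 ± 0.17 and 0.73 ± 0.11.

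Going the other way, 5 members of the pluripotency list rose. They were Klf4, Klf5, Klf2 (1.08 ± 0.16), Myc (0.64 ± 0.10) and Pecam1 (1.16 ± 0.20), the last an adhesion molecule of endothelium as well. Another 6 were not called, at 0.22 for Esrrb, 0.023 for Zfp42, -0.0028 for Jam2, -0.10 for Mybl2, -0.13 for Fbxo15 and -0.29 for Tcl1. Esrrb was called without Control 2 or RA96 3 (0.27 and 0.28), and Tcl1 without Control 1, 2 or 3 (-0.34, -0.19 and -0.33). The probes of Esrrb differed in sign (-0.19 and 0.63), and so did those of Mybl2 (-0.27 and 0.073). Jam2 was 0.87 in set 1 and -0.61 in set 2, so its pooled value describes neither. Pou5f1 was not analysed here.

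Genes of DNA methylation and chromatin were mostly lower. Of 53 measured, 29 were lower (54.7%) and 9 higher (17%), against 33.5% and 26.9% of all genes. The median was -0.27, and 13 and 4 kept a call with group and set as a random block. Besides Dnmt3b, the inactive cofactor Dnmt3l fell by 1.56 ± 0.16, the second de novo enzyme Dnmt3a by 1.21 ± 0.092, and the remodeller Hells, which aids methylation, by 1.56 ± 0.10. The maintenance enzyme Dnmt1 changed by 0.19 ± 0.10 and was not called, except at 0.26 without RA96 6. Dnmt3a and Dnmt1 were singled out after their values were seen. The Polycomb reader Cbx7 fell by 2.21 ± 0.087. The methyl-CpG binding gene Mbd2 went the other way, from -2.79, -2.50 and -2.19 to 0.16, 0.30 and 0.46, a rise of 2.79 ± 0.11 without overlap, and Hmga2, an architectural factor of growing mesenchyme, rose by 1.47 ± 0.22. Setdb1 and Smarca5 rose by 0.72 ± 0.15 and 0.67 ± 0.10, though a single probe of Smarca5 was of the opposite sign.

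Retinoid genes were more often higher than lower. Of 25 measured, 9 were higher (36%) and 4 lower (16%), against 26.9% and 33.5% of all genes. The median was 0.15, and 7 and 2 were called with the random block. Only 2 were lower without any of Control 1, Control 2, RA96 1 or RA96 3. Rarb, the receptor that is itself a classical target, went from -0.47, -0.23 and -0.061 to 2.15, 2.46 and 3.26 and rose by 2.84 ± 0.18 (7.17-fold, adjusted p = 1.42e-07). The groups were apart by more than 2 log2 units, and all RA96 arrays exceeded the embryo. The partner receptor Rxra, singled out after its value was seen, changed by -0.0016 ± 0.074 and was not called, and Rxrg fell by 0.61 ± 0.089. The response genes Tshz1, Meis1 and Meis2, of which the Meis factors are cofactors of Hox proteins, rose by 3.66 ± 0.14, 3.17 ± 0.16 and 2.27 ± 0.13. The 2 probes of Meis2 were both called but stood far apart, at 0.93 and 3.61. The orphan receptors Nr2f1 and Nr2f2, also picked after seeing their values, rose by 2.21 ± 0.17 and 2.13 ± 0.14. The coactivator Ncoa3 fell by 0.71 ± 0.078. The degrading enzyme Cyp26a1 was not analysed here.

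Among the Hox genes, 14 of 39 were measured, 7 higher (50%) and 2 lower (14.3%), against 26.9% and 33.5% of all genes. Hoxa5 stood apart in size, with Control values of -1.63, -1.38 and -1.07 and RA96 values of 3.30, 3.65 and 4.28. Hoxb9 rose by 1.77 ± 0.16, Hoxa6 by 1.62 ± 0.42 and Hoxb8 by 1.60 ± 0.25. Hoxb4 fell by 0.48 ± 0.10 and Hoxd12 by 0.28 ± 0.064, both with overlapping groups. With group and set as a random block, 3 Hox genes stayed higher and 0 lower.

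Mesenchymal and matrix genes were mostly higher. Of 35 measured mesenchyme and epithelial-mesenchymal transition genes, 29 were higher (82.9%) and 1 lower (2.9%), against 26.9% and 33.5% of all genes. The median was 1.60, 26 rose at least 2-fold, and 27 and 0 were called with the random block. The members' median lay between -2.20 and -1.32 on Control arrays and between -0.10 and 0.18 on RA96 arrays. Beside Anxa1, Pmp22, Lgals1 and S100a6, already described, the transition factors moved modestly. Twist1 rose by 1.30 ± 0.17 and Snai1 by 0.69 ± 0.20, while Zeb1 and Zeb2, singled out after seeing their values, changed by 0.12 ± 0.093 and -0.011 ± 0.08 and were not called. N-cadherin, Cdh2, rose by 1.08 ± 0.056, although its probes differed in sign. The member that fell was Eng, a TGF-beta coreceptor, at -0.48 ± 0.065.

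In the interstitial and matricellular list, 24 of 36 were higher (66.7%) and 1 lower (2.8%), against 26.9% and 33.5% of all genes. The median was 0.85, and 17 and 0 were called with the random block. Ccn2, connective tissue growth factor, had Control values of -0.78, -0.55 and -0.39 and RA96 values of 3.73, 4.14 and 4.32, well apart. Thbs1, thrombospondin, rose by 4.12 ± 0.13, the short-chain collagen Col8a1 by 3.43 ± 0.16 and the proteoglycan Dcn by 3.35 ± 0.15. Postn, a matricellular protein of mesenchyme, rose strongly yet stayed below the embryo (-7.24, -5.51 and -4.58 against -1.65, -1.33 and -1.06). The fibrillar collagens were picked after seeing their values. Those of types I and III were divided, with Col1a1 at 0.91 ± 0.29 (called), Col1a2 at 0.19 ± 0.13 and Col3a1 at -0.14 ± 0.086 (not called). The type V chains rose further, Col5a2 by 2.13 ± 0.16 without overlap and Col5a1 by 1.13 ± 0.15 with overlap. Their calls with the random block are not given here. Single probes of Col1a2 differed in sign. Bgn, biglycan, fell by 0.32 ± 0.084.

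Basement membrane genes were higher in 18 of 26 (69.2%) and lower in 3 (11.5%), against 26.9% and 33.5% of all genes. The median was 0.78, and 13 and 2 were called with the random block. Nid1, which links laminin to collagen IV, rose by 4.17 ± 0.21. The collagen IV chains Col4a5, Col4a2 and Col4a1 rose by 2.83 ± 0.19, 2.56 ± 0.14 and 2.30 ± 0.14, but Col4a4 fell by 0.62 ± 0.067. Smoc1 fell by 0.66 ± 0.15 and Frem2 by 1.73 ± 0.11.

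Adhesion and cytoskeleton genes followed. Integrins and focal adhesion genes were higher in 29 of 37 (78.4%) and lower in 6 (16.2%), against 26.9% and 33.5% of all genes. The median was 0.87, and 20 and 3 were called with the random block. Lpp, a LIM protein of smooth muscle adhesions, rose by 3.66 ± 0.12, and Tgfb1i1, another LIM protein, by 2.95 ± 0.14. The integrin chain Itgb1 rose by 2.92 ± 0.12 and Parva, parvin, by 2.52 ± 0.14. Those that fell were led by integrin chains, Itgb5 (-1.18), Itga6 (-0.84), Itga2 (-0.59) and Itgb4 (-0.57). Actin cytoskeleton genes were higher in 28 of 37 (75.7%) and lower in 4 (10.8%), with a median of 0.81, and 22 and 0 were called with the random block. Tmsb4x, which holds free actin monomers, rose by 2.89 ± 0.23, the calponin Cnn2 by 2.62 ± 0.086, the GTPase Rhob by 2.35 ± 0.17 and the actin-severing Cfl2 by 2.35 ± 0.094. The falls were small, led by Diaph1 at -0.35, and 2 were left without Control 4, Control 5, RA96 1 or RA96 3.

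Extracellular proteases and their inhibitors were higher in 27 of 35 (77.1%) and lower in 3 (8.6%), against 26.9% and 33.5% of all genes. The median was 0.86, 18 and 1 were called with the random block, and 5 were lower without Control 6. After Prss23 and Serpinb6b came Adamts5, an aggrecan-cleaving protease, at 3.90 ± 0.24, and Serpinb9, a granzyme inhibitor, at 3.30 ± 0.23. Adam23 fell by 1.16 ± 0.17, Pcsk6 by 0.54 ± 0.14 and Adam8 by 0.34 ± 0.10.

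**Figure D4:**
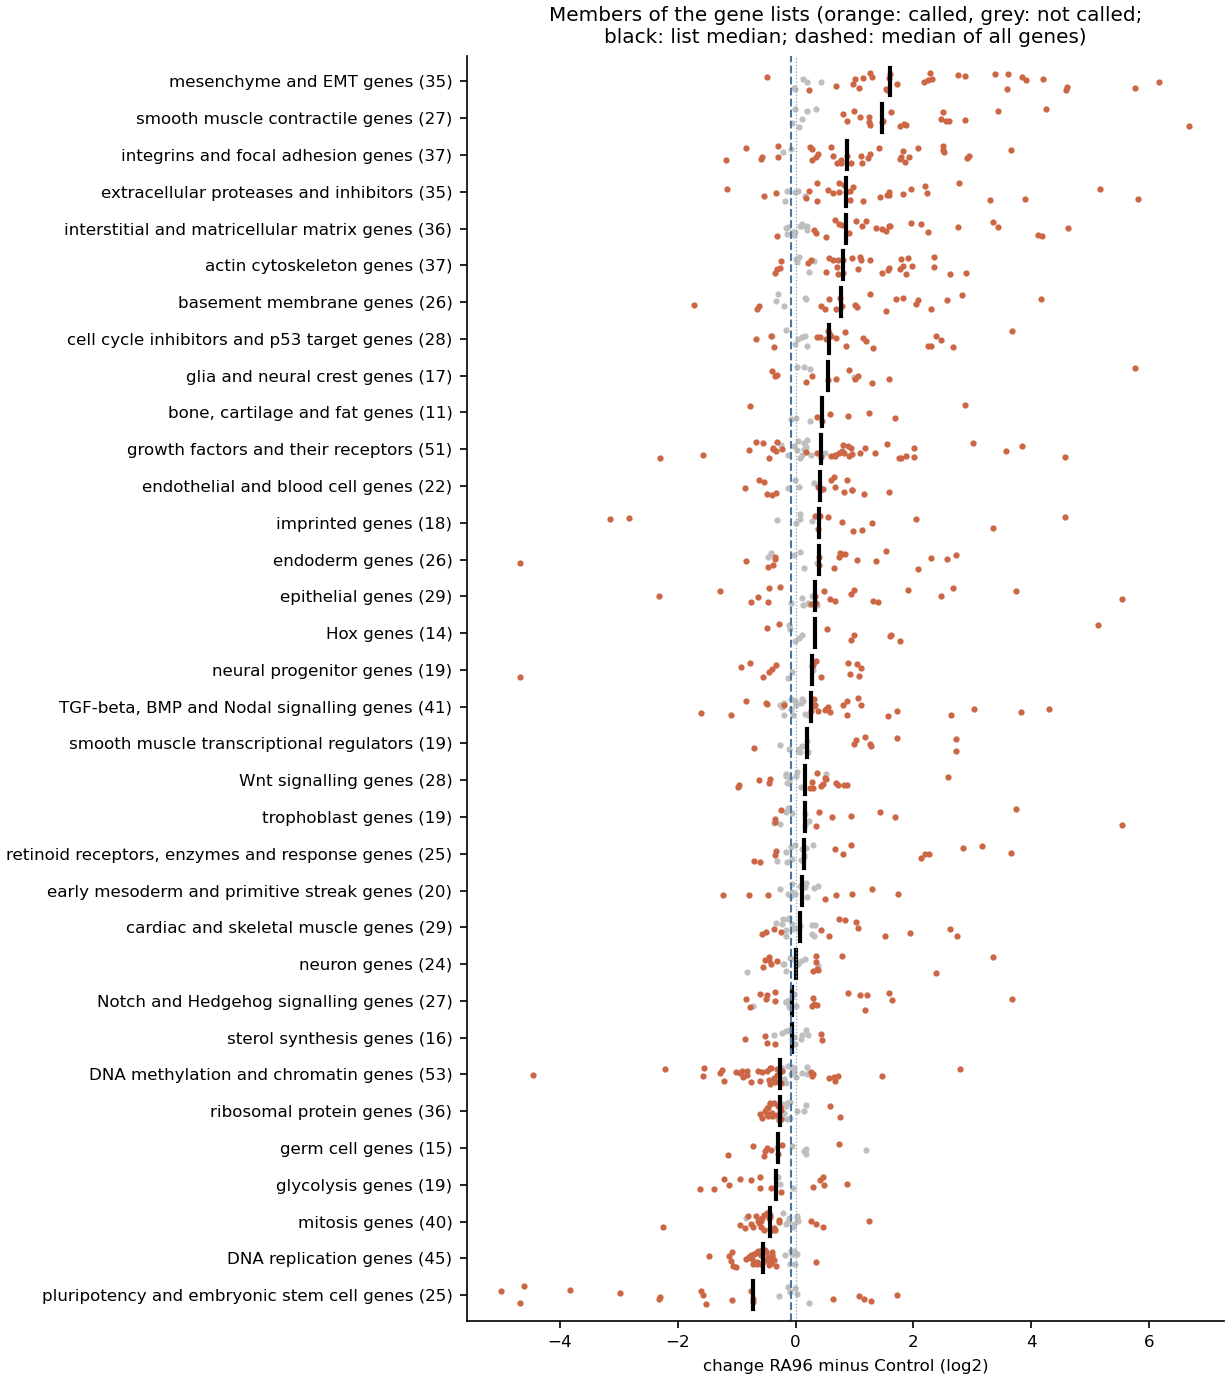
Change RA96 minus Control (log2, x axis) of every measured member of the gene lists (lines, with the number measured), called members in orange and others in grey, the list median as a black bar and the median of all genes (-0.07) as a dashed line. Mesenchyme (median 1.60) and smooth muscle contractile genes (1.46) lie farthest to the right, and pluripotency genes (-0.73) farthest to the left.

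Lists of other lineages were read in the same way, against 26.9% of all genes higher and 33.5% lower. These lists overlap, since several factors serve more than 1 lineage, and their part in the rise of the contractile genes was not tested. Of the cardiac and skeletal muscle genes, 10 of 29 were higher (34.5%) and 4 lower (13.8%), with a median of 0.08, and 6 and 1 were called with the random block. Only 2 were lower without Control 2, RA96 1, RA96 3 or RA96 4. The stress-responsive Ankrd1 rose by 2.75 ± 0.23, the natriuretic peptide Nppb by 2.63 ± 0.17 and the myosin light chains Myl2 and Myl7 by 1.94 ± 0.26 and 1.51 ± 0.11. Other sarcomere and cardiac genes were divided, and those given here were singled out after their values were seen. Actc1, Tnnt2 and Nkx2-5 changed by 0.08, -0.051 and -0.13 and were not called. Tnnc1 and Tnni3 rose by 0.84 ± 0.20 and 0.56 ± 0.085, with overlapping groups. Nppa and Actn3 rose by 1.05 ± 0.094 and 1.03 ± 0.11, without overlap, and their calls with the random block are not given here. Myod1, the skeletal muscle factor, fell by 0.57 ± 0.092 and the slow myosin Myh7 by 0.50 ± 0.10. The array medians of this list overlapped between the groups.

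Endothelial and blood cell genes were higher in 12 of 22 and lower in 6 (median 0.41). With group and set as a random block 5 and 1 kept a call, in a fit that called 1606 and 1396 of all 17863 rows. Ets1 rose by 1.58 ± 0.11, the VEGF receptor Kdr by 0.97 ± 0.10 and VE-cadherin, Cdh5, by 0.96 ± 0.20. Flt4 fell by 0.86 ± 0.19, Nos3 by 0.62 ± 0.09, Sox18 by 0.53 ± 0.12 and Eng as given above. The median of the list stayed below the embryo on all arrays, from -1.29 to -1.08 in Control and from -1.19 to -0.82 in RA96.

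Neural genes went both ways. Of 19 progenitor genes, 9 were higher and 7 lower (median 0.28), and 4 and 3 with the random block. Emx2 rose by 1.11 ± 0.28, Irx3 by 1.05 ± 0.15 and nestin, Nes, by 0.92 ± 0.083, while Sox2, Prtg (-0.93 ± 0.12), Hes5 (-0.78 ± 0.11) and En1 (-0.55 ± 0.12) fell. Of 24 neuron genes, 8 were higher (33.3%) and 6 lower (25%), with a median of 0.013. With the random block 3 and 0 were called, and 5 were higher without Control 4 and 4 without RA96 1. Dpysl3 and Gap43, growth cone proteins, rose by 3.36 ± 0.12 and 2.39 ± 0.10. Dcx, of migrating neurons, rose by 0.78 ± 0.093. The neuron genes Stmn2, Gad1, Ptprn and Elavl2 fell, by 0.45 ± 0.084, 0.45 ± 0.084, 0.52 ± 0.10 and 0.55 ± 0.12. The median of the neuron genes stayed below the embryo on every array. Of 17 glia and neural crest genes, 10 were higher and 3 lower (median 0.55, and 5 and 0 with the random block), led by Pmp22, Ets1, Twist1 and Msx1 (1.05 ± 0.23), and Sox8 and Tfap2c fell by 0.31 ± 0.078 and 0.35 ± 0.071.

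Endoderm genes were higher in 14 of 26 and lower in 6 (median 0.39), or 8 and 2 with the random block. Beside Gata6 and the collagen IV chains, Dab2, an endocytic adaptor of extraembryonic endoderm, rose from -2.07, -1.68 and -0.87 to 0.31, 0.38 and 0.89, by 2.07 ± 0.19. The defining factors were divided. Sox17 rose by 0.66 ± 0.13, Gata4 changed by 0.076 ± 0.077 and Foxa2 by 0.14 ± 0.081, and Alb, albumin, lay far below the embryo in both groups (-4.27 ± 1.53 in Control and -4.28 ± 1.10 in RA96, SD, n = 6). These 4 were singled out after their values were seen. Fst, follistatin, fell by 0.84 ± 0.10.

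Of 19 trophoblast genes, 8 were higher and 3 lower (median 0.16, and 5 and 0 with the random block), or 1 lower without RA96 1 or RA96 3. The rises were led by the keratins Krt8 and Krt18, shared with simple epithelia, then Pparg (1.70 ± 0.26) and Gata3 (1.44 ± 0.071). Tfap2c fell as given above, and Eomes, picked after its value was seen, changed by -0.056 ± 0.079 and was not called. Of 20 early mesoderm and primitive streak genes, 5 were higher (25%) and 3 lower (15%), shares below those of all genes. The median was 0.12, and 3 and 0 were called with the random block. Wt1, a factor of mesothelium and kidney precursors, rose by 1.74 ± 0.15. The streak genes Gsc, Fgf8 and Mesp2 fell by 1.23 ± 0.23, 0.79 ± 0.20 and 0.47 ± 0.083. The 2 probes of Fgf8 stood apart, at -1.30 and -0.28, and only 1 was called.

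Epithelial genes were higher in 15 of 29 and lower in 7 (median 0.34), or 10 and 3 with the random block. Krt18, the partner of Krt8, rose by 3.74 ± 0.21, the desmosomal protein Perp by 2.68 ± 0.23 and the claudin Cldn4 by 2.48 ± 0.14. Epcam, Ovol2 (-0.75 ± 0.10) and Spint1 (-0.63 ± 0.10) fell. E-cadherin, Cdh1, singled out after its value was seen, changed by 0.11 ± 0.081 and was not called.

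Signalling genes shifted within each pathway. TGF-beta ligands act through paired kinase receptors and Smad factors and induce contractile and matrix genes. Of 41 genes of the TGF-beta, BMP and Nodal pathways, 20 were higher (48.8%) and 6 lower (14.6%), against 26.9% and 33.5% of all genes. The median was 0.27, and 13 and 3 were called with the random block. The ligand Tgfb2 went from -1.96, -1.68 and -1.51 to 2.33, 2.57 and 2.84, without overlap and with a rise of 4.31 ± 0.10. The activin subunit Inhba rose by 3.83 ± 0.24, and Ltbp1, which stores latent TGF-beta in the matrix, by 2.64 ± 0.10. Smad9 rose by 3.03 ± 0.60, but by 5.45 in set 1 and 1.33 in set 2, and its groups overlapped. The receptor Acvr2b fell by 1.09 ± 0.12, the activin inhibitor Fst as given above, and the corepressor Skil by 0.50 ± 0.08.

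Wnt genes moved little. Of 28, 13 were higher (46.4%) and 5 lower (17.9%), against 26.9% and 33.5% of all genes. The median was 0.16, and 4 and 3 were called with the random block. Only the receptor Ror1 rose at least 2-fold, by 2.58 ± 0.28. Dkk1, an antagonist, rose by 0.87 ± 0.10 and the receptors Fzd7 and Ryk by 0.82 ± 0.094 and 0.71 ± 0.092. The nuclear mediators Tcf7l2, Tcf7l1 and Lef1 fell by 0.98 ± 0.18, 0.95 ± 0.17 and 0.63 ± 0.11. The 2 probes of Tcf7l2 stood far apart, at -1.89 and -0.063, and only 1 was called. In the Notch and Hedgehog list, 11 of 27 were higher (40.7%) and 7 lower (25.9%), with a median of -0.07, or 7 and 2 with the random block. Gas1, a Hedgehog coreceptor and growth arrest gene, rose by 3.68 ± 0.18, with Boc, Hhip and Gli3 at 1.64 ± 0.14, 1.59 ± 0.19 and 1.21 ± 0.11. The Hedgehog receptor and target Ptch1 fell by 0.61 ± 0.12, and the Notch genes Dtx1 and Notch2 by 0.84 ± 0.12 and 0.50 ± 0.12.

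Growth factors and receptors were higher in 27 of 51 (52.9%) and lower in 11 (21.6%), against 26.9% and 33.5% of all genes. The median was 0.44, and 20 and 3 were called with the random block. Igf2 went from -5.87, -4.56 and -3.66 to -0.83, 0.36 and 1.20. Its set 1 arrays were lower in both groups, and its change was 4.75 in set 1 and 4.44 in set 2. The EGF family ligand Hbegf rose by 3.84 ± 0.14, the PDGF family ligand Pdgfc by 3.58 ± 0.16 and the receptor kinase Axl by 3.01 ± 0.15. Igfbp2 fell by 1.57 ± 0.14 and Lifr, part of the receptor that sustains mouse stem cells, by 0.67 ± 0.093, although a single Lifr probe had the opposite sign.

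Of 18 imprinted genes, 11 were higher (61.1%) and 2 lower (11.1%), against 26.9% and 33.5% of all genes. The median was 0.40, and 6 and 2 were called with the random block. Peg3 and Ndn rose by 2.04 ± 0.13 and 1.30 ± 0.10. The 2 that fell were among the largest falls of all. Magel2 went from 1.87, 1.92 and 2.02 to -1.53, -1.15 and -0.91, and fell by 3.14 ± 0.088, and Snhg14 fell by 2.83 ± 0.13. Ndn and Magel2 are neighbours in the Prader-Willi region, so adjacent imprinted genes changed in opposite directions. Mkrn3, of the same region and picked after its value was seen, rose by 1.13 ± 0.13.

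Proliferation genes were lower by small amounts, with cells near confluence as the comparison. Of 45 DNA replication genes, 35 were lower (77.8%) and 1 higher (2.2%), against 33.5% and 26.9% of all genes. The median was -0.55, and 14 and 0 kept a call with group and set as a random block. The topoisomerase Top2a fell by 1.12 ± 0.085, the helicase subunit Mcm7 by 1.09 ± 0.15 and cyclin E1, Ccne1, by 1.08 ± 0.10, while Pola2 rose by 0.34 ± 0.09. The median of the list was above the embryo on every array, from 0.83 to 1.22 in Control and from 0.25 to 0.54 in RA96. Of 40 mitosis genes, 25 were lower (62.5%) and 4 higher (10%), with a median of -0.44, or 12 and 1 with the random block. The tubulin regulator Stmn1 fell by 2.24 ± 0.19, with overlapping groups, and the spindle checkpoint genes Bub1b, Bub1 and Cdc20 by 0.94 ± 0.11, 0.86 ± 0.078 and 0.81 ± 0.085. Anln, anillin, which also binds actin, rose by 1.25 ± 0.14, and Prc1 and Foxm1 by 0.46 and 0.34.

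Cell cycle inhibitors and p53 targets were higher in 18 of 28 (64.3%) and lower in 3 (10.7%), against 26.9% and 33.5% of all genes. The median was 0.57, and 12 and 1 were called with the random block. Beside Gas1 and Perp, the kinase Plk2 rose by 2.47 ± 0.18 and the CDK4 and CDK6 inhibitor Cdkn2b by 2.39 ± 0.19. Cdkn1a, p21, picked after its value was seen, had means of -2.14 ± 0.10 in Control and 0.063 ± 0.43 in RA96 (SD, n = 6), without overlap, and rose by 2.24 ± 0.16. Pmaip1, a death gene under p53, fell by 0.67 ± 0.13, with Sesn2 and Rbl1 at -0.43 and -0.37.

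The position of the 96 h culture between the other groups is given as levels, since comparisons with them share the Control or RA96 arrays, and they were not tested here. RA48 cells had 48 h of retinoic acid (5 arrays), and Puromycin cells had 96 h followed by 48 h of selection (6 arrays). Values are means with SD over arrays. Acta2 was -4.90 ± 0.65 in Control, -0.34 ± 0.14 at RA48, 1.87 ± 0.13 at RA96 and 2.40 ± 0.26 after Puromycin. Tgfb2 was -1.71 ± 0.21, 0.20 ± 0.40, 2.56 ± 0.20 and 2.94 ± 0.27 in that order, and its last pair lay within about their SDs. Inhba was -0.44 ± 0.74, -0.055 ± 0.43, 3.28 ± 0.29 and 4.65 ± 0.35, so the step between 48 h and 96 h exceeded the SDs and that before 48 h did not. Hoxa5 was -1.36 ± 0.21, 3.06 ± 0.26, 3.74 ± 0.38 and 2.16 ± 0.36, with the highest mean in the unselected culture at 96 h. Rarb was -0.24 ± 0.17, 2.77 ± 0.49, 2.57 ± 0.44 and 1.01 ± 0.17, with RA48 and RA96 within their SDs. Irx3 was -0.97 ± 0.29, 2.15 ± 0.37, 0.088 ± 0.24 and -0.0075 ± 0.42, and Lefty1 was 3.85 ± 0.22, 5.88 ± 0.38, 2.23 ± 0.40 and 1.52 ± 0.27. Both stood highest at 48 h. For Dnmt3b the levels were 5.24 ± 0.39, 1.93 ± 0.11, 0.74 ± 0.22 and 0.20 ± 0.11, lower at each step.

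**Figure D5:**
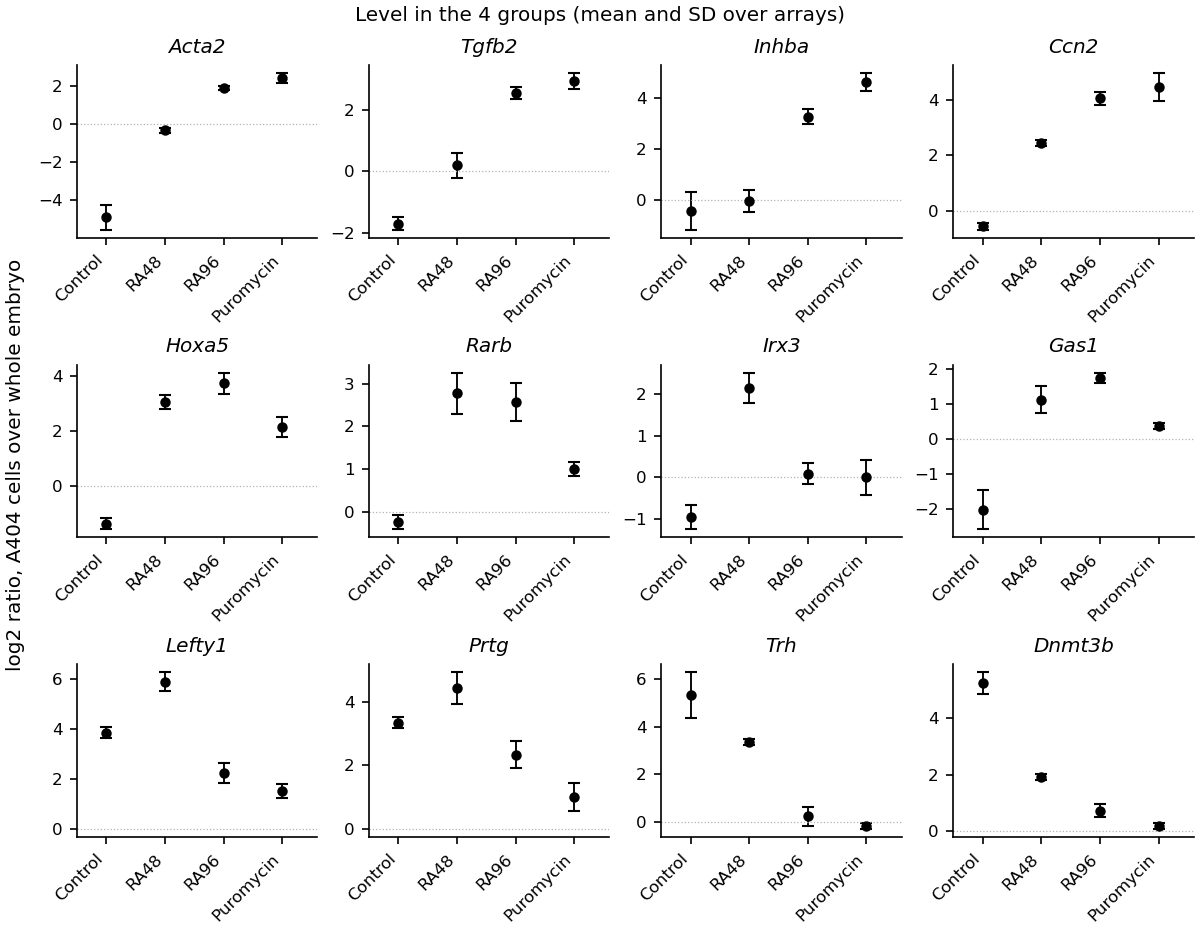
Log2 ratio of A404 cells over whole embryo (y axis) of 12 genes in the 4 groups (x axis), as means with SD over 6 Control, 5 RA48, 6 RA96 and 6 Puromycin arrays. Acta2, Tgfb2 and Ccn2 are higher at each step through RA96, whereas Irx3, Lefty1 and Prtg are highest at RA48.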

How the data were processed

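The 12 arrays were 2-colour Agilent arrays, scanned with model G2565AA and quantified with Feature Extraction A.6.1.1, per the labels' protocols. The deposited values are log10 ratios of Cy5 (A404) over Cy3 (embryo). The base, the centring and the direction are not stated in the sources used here. Base 10 was assumed, being Feature Extraction's usual output, and the direction was taken from the dyes in the labels. The deposited log10 values were divided by 0.30103 to give log2, and no further normalization was applied in the main fit. Of 21446 rows, 1166 without a gene whose values carried at most 6 significant digits on every array, as control features do, were left out. Of the 20280 probes kept, 11100 had 1 gene symbol in the platform annotation, 442 several and 8738 none. Probes of a symbol were averaged, which gave 8683 genes and 17863 rows. A standard error covers the spread between arrays and not that between a gene's probes.

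limma 3.58.1 in R 4.3.3 fitted group and array set. The genes named were the 4 markers, the 15 largest rises and falls, up to 4 members each way of every list and all contractile and pluripotency members, and others are said to be picked after their values were seen. The members, lists and array set were chosen with earlier results of these data known. The build of the probes is not given, so no gene coordinates are printed; promoter windows were matched by symbol. The alternatives were other blocks, scalings, probe handling, filters, thresholds and each array left out. Python 3.11.15 and matplotlib 3.10.9 drew the figures.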

Additional observations from a re-analysis of the deposited data

Results flagged for a closer look

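A single array stood apart from the other 5 of its group, by Dixon's 95% criterion, in 21 of 524 groups tested (4.01%), against about 1 in 20 by chance. The Control 5 array was the outlying one for Sox2 (8.18), Prss23 (-1.80), Fgf8 (1.83), Plin2 (0.40) and Mael (-0.77). Without it the fall of Sox2 was -4.02, that of Fgf8 -0.56, the rise of Plin2 3.10 and that of Mael 0.53, and each kept its call. The Control 3 array stood apart for Krt8 (-2.44), Ltbp1 (-1.95), Pmaip1 (0.77), Rhob (-1.74), Tcf7l2 (1.52) and Thbs1 (-2.47). The Control 2 array did so for Emx2 (0.37) and Hmga2 (1.69), and Control 1 for Dhcr7 (1.08). Among the treated arrays, RA96 2 stood apart for Acvr2b (-0.36), Gas1 (1.46) and Mybl2 (0.16). RA96 3 did so for Rbpms2 (0.94) and Rxra (-1.05), RA96 4 for Gata6 (1.85) and RA96 6 for Ror1 (1.80). Without that array the change of Emx2 was 1.35 and that of Ror1 2.42.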

How the results depend on the processing

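The count of called rows, 9780, was 6519 in set 1 alone (3444 lower), 3002 with group and set as a random block (1606 higher, 53.5% of the calls against 41.7% in the main fit, and 1396 lower), and 1756 at a threshold of 2-fold (1183 higher, 573 lower). It ranged from 8820 to 9851 over the fits that left out 1 array, with 3722 to 4088 higher and 5098 to 5763 lower. The interaction with the set was 514 rows in the main fit and 36 to 718 over those fits. Other normalizations, probe handling and variance settings gave 9742 to 11196 rows, the set as a random block 9361, and leaving out the set term 7768. Whether the replicate numbers pair the samples was not settled. Deviations of same-numbered arrays correlated at 0.54, -0.11, 0.53, 0.24, 0.35 and 0.32. After an additive removal of the set only the second pair, at 0.17, was above 0. That pair alone is split between the sets. A change that differs between the sets leaves residuals of opposite sign in the 2 groups of a set. These correlations therefore cannot show or exclude pairing. A replicate block gave 8629 rows without and 8392 with the array set. Signs reversed for Jam2 in set 1 alone (0.87), and for a single probe of Kcnmb1 (-0.59), Ldb3 (0.27), Cdh2 (-0.11), Lifr (0.11), Smarca5 (-0.26), Rps23 (-0.27) and Col1a2 (-0.41). A probe of Esrrb (-0.19) and a probe of Mybl2 (0.073) also differed in sign from their gene's mean. Of 262 genes named, 56 lost their call with the random block, 24 in set 1 alone, 17 without the set term and 0 under median centring or scale normalization. The cause of these differences was not tested. The array count and the unknown signal over background limit small changes.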

Other observations

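Of 19 glycolysis genes, 10 were lower (52.6%) and 5 higher, against 33.5% and 26.9% of all genes, with a median change of -0.33. With group and set as a random block 6 were lower and 1 higher. The lactate exporter Slc16a3 fell by 1.63 ± 0.094, the pyruvate dehydrogenase kinase Pdk1 by 1.39 ± 0.10, pyruvate kinase, Pkm, by 1.22 ± 0.088 and the muscle phosphofructokinase Pfkm by 1.13 ± 0.11. Pfkfb3, whose product activates phosphofructokinase, rose by 0.88 ± 0.087, Pdk3 by 0.48 ± 0.089, the glucose transporter Slc2a1 by 0.46 ± 0.089 and Eno3 by 0.41 ± 0.13. Sterol synthesis genes mostly missed the threshold, with 4 of 16 lower (25%), 2 higher and a median of -0.07, and 0 were called with the random block. Dhcr7, the last enzyme of cholesterol synthesis, fell by 0.85 ± 0.20. In the short bone, cartilage and fat list, 7 of 11 were higher and 1 lower (median 0.44), or 3 and 1 with the random block. Plin2, a lipid droplet coat protein, rose by 2.88 ± 0.21, the fatty acid transporter Cd36 by 1.25 ± 0.18 and the cartilage collagen Col2a1 by 0.89 ± 0.20, whereas Cebpd fell by 0.77 ± 0.10.

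Ribosomal protein genes were lower in 19 of 36 (52.8%) and higher in 2 (5.6%), against 33.5% and 26.9% of all genes. The median was -0.27, and 0 kept a call with group and set as a random block. Rpl7a fell by 0.61 ± 0.10, Rpl6 by 0.56 ± 0.09, Rpl36 by 0.53 ± 0.089 and Rps21 by 0.48 ± 0.11, all with overlapping groups. Rpl30 rose by 0.76 ± 0.14 and Rps23 by 0.59 ± 0.16, the latter with a single probe of the opposite sign. Ribosomal protein genes have many near-identical pseudogenes, so these probes are uncertain. Of 15 germ cell genes, 8 were lower (53.3%) and 1 higher (6.7%), with a median of -0.29, and 1 and 0 with the random block. There were 2 higher without Control 4, RA96 2, RA96 4 or RA96 6. The meiotic chromosome gene Sycp3 fell by 1.15 ± 0.12, Rnf17 by 0.54 ± 0.15 and Tex19.1 by 0.52 ± 0.11, while Mael rose by 0.73 ± 0.19.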
